A study of Mus musculus with 24 samples.

Results

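The genes described here are 10 genes of the blood-brain barrier, chosen by symbol from the 30270 gene identifiers in the deposited tables. They are the drug efflux pumps *Abcb1a* and *Abcg2*, the organic anion carriers *Slco1a4* and *Slco1c1*, the glucose carrier *Slc2a1*, the lipid carrier *Mfsd2a*, the tight junction gene *Cldn5* and the endothelial genes *Flt1*, *Pecam1* and *Ly6c1*. RNA was sequenced from punches of the nucleus accumbens (NAc) and the ventral tegmental area (VTA) of 12 C57BL/6 mice. The groups were wild-type (*Vdr*+/+) mice given PBS, wild-type mice given morphine, *Vdr*-/- mice given PBS and *Vdr*-/- mice given morphine. There were 3 mice per group with both regions of each mouse, so 24 libraries. That both regions came from the same mouse is inferred from the number they share in the labels. Morphine sulfate was injected once into the abdomen at 5 mg/kg, and tissue was taken 90 minutes later. A time of 60 minutes is given elsewhere in the study's methods for mice given saline, so whether PBS and morphine mice were killed at the same time is not known here. *Vdr*-/- mice lack the vitamin D receptor throughout the body and received calcium-enriched food, which for wild-type mice is not stated, so genotype and diet cannot be told apart. Age and sex are not in the labels.

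Endothelial cells of brain capillaries are sealed to each other by tight junctions, take up nutrients through dedicated carriers and return many drugs to the blood with ATP-driven pumps. *Abcb1a* encodes P-glycoprotein of the mouse brain capillary, which has morphine among its substrates, and *Abcg2* encodes the breast cancer resistance protein. *Slco1c1* carries thyroid hormone and is also present in astrocytes, *Slc2a1* encodes the GLUT1 glucose carrier, and *Mfsd2a* imports lysophosphatidylcholine with docosahexaenoic acid and restrains transport by vesicles across the endothelium. *Cldn5* encodes claudin-5, *Flt1* a VEGF receptor, *Pecam1* the adhesion molecule CD31, and *Ly6c1* a surface antigen of brain endothelium. The punches hold all cell types of the tissue, so fewer endothelial cells and less RNA per endothelial cell cannot be told apart.

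On GRCm38, in the GENCODE M21 annotation, *Abcb1a* lies on the forward strand of chromosome 5 from 8660077 to 8748575 with 28 blocks of exons. *Flt1* lies on the reverse strand of the same chromosome from 147561604 to 147726011. *Abcg2* (chromosome 6, 58584523 to 58695676), *Slco1c1* (chromosome 6, 141524368 to 141570177) and *Slco1a4* (chromosome 6, 141805440 to 141856199) share a chromosome, as do *Slc2a1* (chromosome 4, 119108711 to 119137983) and *Mfsd2a* (chromosome 4, 122946850 to 122961188). *Pecam1* is at chromosome 11 from 106654217 to 106750628, *Ly6c1* at chromosome 15 from 75044018 to 75048830, and *Cldn5*, a gene of 1 exon, at chromosome 16 from 18776847 to 18778262. Reads of 2 members are less certain than the others. Of the 50-base words of *Abcb1a* transcripts 17.6% also occur in other genes, mostly in its paralogs *Abcb1b* and Abcb4, and 10.09% of its exon bases lie opposite the antisense gene *Gm42686*. For *Ly6c1* the shared words make up 32.8%, mostly with *Ly6c2*, *Ly6a* and *Ly6i*. The other 8 members share at most 1.61%.

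The RefSeq promoter table (GRCm38.p6) held 9 of the 10 members. The bases before the start are shown for *Mfsd2a*, the member that rose with morphine below, and for *Slco1c1*, the only member that was higher in the nucleus accumbens than in the VTA. Capitals mark the letters AGGTCA, the core that the vitamin D receptor and related nuclear receptors recognise, searched on both strands together with TATAAA (the TATA box) and GGGCGG (the GC box). The *Mfsd2a* stretch is chr4:122961189-122961438 on the reverse strand, and that of *Slco1c1* is chr6:141524104-141524353 on the forward strand.
Mfsd2a: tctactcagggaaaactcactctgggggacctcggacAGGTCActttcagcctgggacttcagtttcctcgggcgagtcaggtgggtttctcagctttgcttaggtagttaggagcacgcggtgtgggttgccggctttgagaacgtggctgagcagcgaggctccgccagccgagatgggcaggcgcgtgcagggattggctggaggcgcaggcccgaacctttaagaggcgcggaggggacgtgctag
Slco1c1: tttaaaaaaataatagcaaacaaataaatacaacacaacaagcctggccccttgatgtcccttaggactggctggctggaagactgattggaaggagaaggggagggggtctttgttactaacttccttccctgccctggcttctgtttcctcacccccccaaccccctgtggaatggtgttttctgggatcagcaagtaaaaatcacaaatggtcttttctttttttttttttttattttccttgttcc
The *Mfsd2a* stretch holds these letters once, starting 213 bases before the gene's start, and the *Slco1c1* stretch holds none of the 3 motifs. Such letters occur before 13.8% of 27025 genes, TATAAA before 13% and GGGCGG before 32.9%, so a single match is a description and not a binding site. The windows differ in base composition, with 61.6% G and C for *Mfsd2a* and 42.8% for *Slco1c1*, against a median of 52% over all genes. The RefSeq start of *Abcb1a* lies 92986 bases before the start of the GENCODE gene whose reads were counted, so its promoter is not shown.

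Libraries held 9328726 to 30184426 reads on genes, with a median of 16779764. Every member was well covered, from 73 to 370 reads per library for *Cldn5*, the least covered, to 1169 to 5361 for *Slc2a1*. Levels are given as CPM, the reads of a gene scaled to the reads on genes of its library, and as RPKM, which also divides by exon length, where genes are compared with each other. The targeted gene, *Vdr*, had 0 to 17 reads in a library in both genotypes, too few and too even to check the labels. A list of 6 dopamine neuron genes, *Th* and *Slc6a3* among them, summed to 1817 to 2325 CPM in the VTA of wild-type PBS mice, 309 to 1729 in *Vdr*-/- PBS mice, 387 to 838 in *Vdr*-/- morphine mice and only 91.9 to 351 in wild-type morphine mice. Fewer such neurons and less of these RNAs per neuron cannot be told apart, and the part of this in the VTA results was not tested. In the nucleus accumbens, wild-type PBS mouse 2 stood apart, with 2972 CPM for 8 astrocyte genes against 4289 to 5045 in the other 11 libraries.

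**Figure D1:**
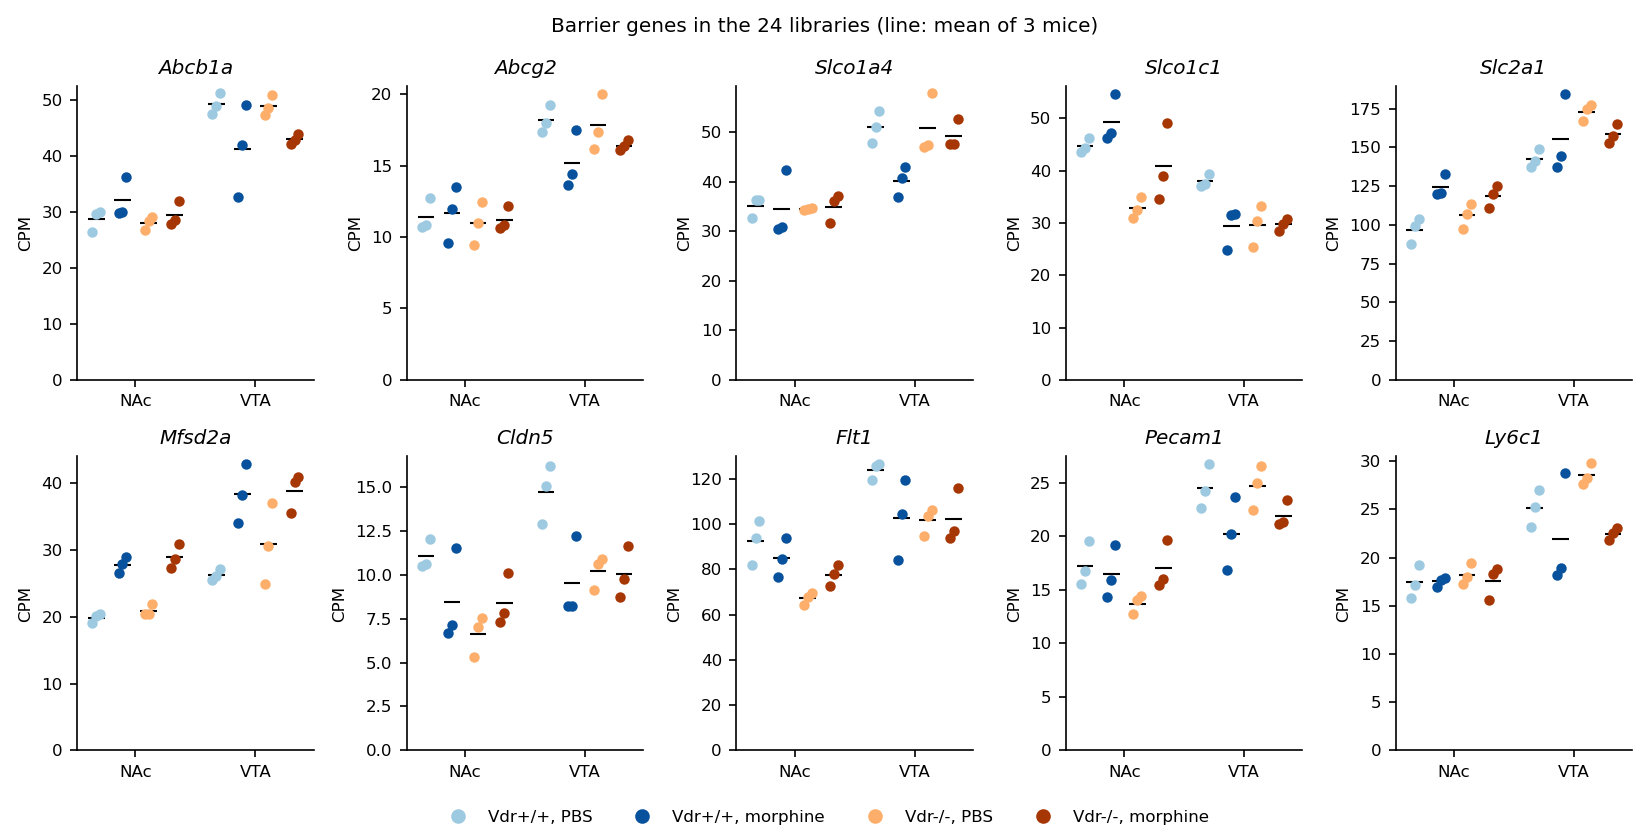
CPM of each member (one panel each) in all 24 libraries. Points are mice, coloured by genotype and injection, and lines are means of 3 mice. *Mfsd2a* in the nucleus accumbens (NAc) is between 19.01 and 21.9 CPM in the 6 PBS libraries and between 26.6 and 31.0 in the 6 morphine libraries.

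All 15 endothelial marker genes that are not members had reads in every library, *Cdh5*, *Tie1* and *Tek* included, and 8 choroid plexus genes together had 13.9 to 40.2 CPM in 23 libraries and 139.5 CPM in the VTA of *Vdr*-/- morphine mouse 2.1. Among the members *Slc2a1* was by far the most abundant per exon length, with 31.8 ± 3.71 RPKM (SD, n = 12) in the nucleus accumbens and 44.9 ± 4.66 for the VTA. *Mfsd2a* and *Ly6c1* followed in both regions, at 10.8 ± 1.94 and 10.5 ± 0.721 RPKM in the nucleus accumbens and at 14.9 ± 2.89 and 14.6 ± 2.30 RPKM in the VTA. They did not differ from each other beyond their spread. *Slco1c1* came next in the nucleus accumbens with 8.09 ± 1.44 RPKM, and *Cldn5* (6.097 ± 1.54), *Flt1* (5.97 ± 0.847), *Slco1a4* (5.42 ± 0.512) and *Abcb1a* (5.39 ± 0.477) lay within a spread of each other. In the VTA *Abcb1a* followed *Ly6c1* at 8.31 ± 0.957 RPKM, close to *Flt1* (7.98 ± 1.02), *Cldn5* (7.86 ± 1.83) and *Slco1a4* (7.46 ± 0.908), and *Slco1c1* stood below them at 6.12 ± 0.877. *Pecam1* (2.59 ± 0.365 and 3.67 ± 0.448 RPKM) and *Abcg2* (1.39 ± 0.154 and 2.07 ± 0.221) were the lowest in both regions. SD here covers all 12 mice of a region, whatever their group.

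Both efflux pumps and 7 other members were more abundant in the VTA than in the nucleus accumbens of the same mice, and the thyroid hormone carrier *Slco1c1* was the exception. Over the 12 mice all 10 members passed the test between the regions (limma on log2 CPM with a term for the mouse, Benjamini-Hochberg adjusted p under 0.05), against 70.7% of 16561 genes. Of the 10, 9 were lower in the nucleus accumbens, against 36.2% of all genes, and 1 was higher, against 34.5%. The regions thus differed for most genes, and a call by itself says little about the members. Their size and direction are given below.

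*Abcb1a* had 26.5, 29.3 and 36.3 CPM as the lowest, median and highest of the 12 nucleus accumbens libraries, and 32.6, 47.4 and 51.2 CPM of the 12 VTA libraries. The ranges overlapped only through the wild-type morphine mice. Within mice, it was lower in the nucleus accumbens in 12 of 12 mice, with a log2 difference of -0.55 (95% confidence interval -0.69 to -0.41, adjusted p = 1.73e-06), which is 1.46-fold more in the VTA. The 15 other endothelial genes had a median difference of -0.36. Of these, 14 were called lower in the nucleus accumbens, against 36.2% of all genes. *Abcb1a* fell below the mean of these genes in 11 of 12 mice, by 0.22 ± 0.12 (SD) on average on the log2 scale. No test was made of that difference. *Abcg2* ran from 9.42 to 13.5 CPM in the nucleus accumbens and from 13.7 to 20.0 CPM in the VTA, with no overlap. It was lower in 12 of 12 mice by a log2 difference of -0.51 (-0.63 to -0.39, adjusted p = 1.05e-06) and below the endothelial mean in 10 of 12 mice.

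The endothelial members had smaller point estimates than the pumps, but no test compared them. The estimate of *Pecam1* lay within the interval given for *Abcg2*. *Pecam1* (-0.44), *Ly6c1* (-0.39), *Flt1* (-0.35) and *Cldn5* (-0.30) were each lower in the nucleus accumbens in 12 of 12 mice, with adjusted p between 7.31e-06 and 1.97e-04. *Slc2a1* (-0.43) and *Mfsd2a* (-0.39) were also lower in 12 of 12 mice, and *Slco1a4* (-0.39) in 11 of 12. *Slco1c1* ran from 30.9 to 54.7 CPM in the nucleus accumbens and from 24.9 to 39.5 CPM in the VTA, ranges that overlap across mice. It was higher in the nucleus accumbens in 12 of 12 mice, by a log2 difference of 0.46 (0.31 to 0.61, adjusted p = 3.10e-05). Of 8 astrocyte genes, 2 were called higher and 6 lower in the nucleus accumbens, against 34.5% and 36.2% of all genes. Their summed CPM ran from 2972 to 5045 in the nucleus accumbens and from 3333 to 4392 in the VTA, and their part in the *Slco1c1* difference was not tested.

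The region difference was also taken within each group of 3 mice. In wild-type PBS mice all 10 members were called, against 44.9% of genes tested, and in *Vdr*-/- PBS mice also 10, against 55.2%. In *Vdr*-/- morphine mice 9 were called, against 46.9%, and in wild-type morphine mice 4, against 38.4%. Those 4 were *Abcg2*, *Slco1c1*, *Slc2a1* and *Mfsd2a*. For *Abcb1a* the log2 difference was -0.71 in wild-type PBS mice and -0.69 in *Vdr*-/- PBS mice, but -0.30 (-0.61 to 0.01, adjusted p = 0.112) in wild-type and -0.48 in *Vdr*-/- morphine mice. The wild-type morphine group is the one with the lowest dopamine neuron genes in its VTA libraries. The test of the difference between injections is given further on.

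**Figure D2:**
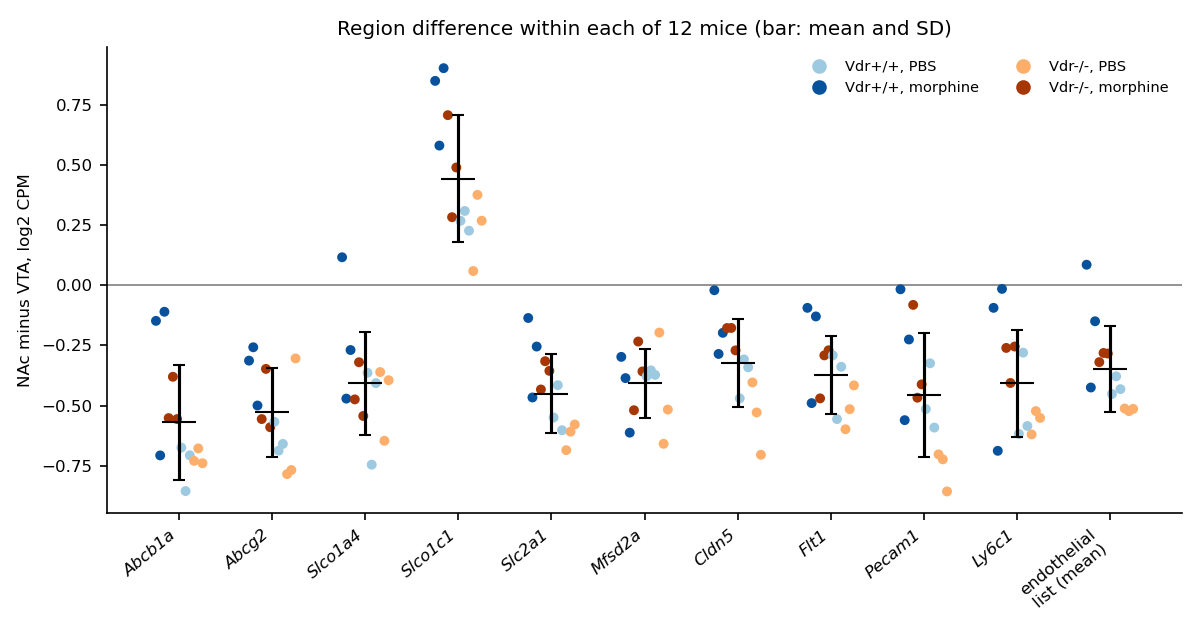
Difference of log2 CPM between the nucleus accumbens (NAc) and the VTA of each of 12 mice, for each member and for the mean of 15 endothelial genes that are not members. Bars are means and SDs. Points below 0 are higher in the VTA. *Slco1c1* lies above 0 in 12 of 12 mice and the other members lie below 0 in at least 11.

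Genes of the same systems outside the 10 members were read from lists. Of 6 other efflux pumps and drug transporters, 3 were lower in the nucleus accumbens, among them the anion transporter *Slc22a8* (-0.58) and the second mouse P-glycoprotein gene *Abcb1b* (-0.45), and 2 were higher, *Abcc1* (0.29) and *Abcc5* (0.24). Of 14 nutrient carriers and receptors of brain capillaries, 9 were lower and 2 higher. The lactate carrier *Slc16a1* (-0.76) and the large neutral amino acid carrier *Slc7a5* (-0.52) were among the lower ones. Of 10 junction genes, 8 were lower and 1 higher, with cingulin (*Cgn*, -1.19) as the lowest. Of 8 genes of leaky or activated endothelium, 6 passed the filter on low values and all 6 were lower, *Plvap* (-0.69) and *Cav1* (-0.68) among them. So were 8 of 11 pericyte and smooth muscle genes, *Kcnj8* (-0.66) and *Abcc9* (-0.65) included. Of all 16561 genes tested, 36.2% were called lower and 34.5% higher in the nucleus accumbens, so counts near these shares say little about a list. The median difference over all genes tested was -0.01.

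With the genotypes compared, no member passed the threshold in either region or with either injection. The counts were 0 of 10 in the nucleus accumbens of PBS mice (background 0.069% of 15933 genes), 0 in that of morphine mice (0.192% of 15638), 0 in the VTA of PBS mice (0.39% of 16425) and 0 in that of morphine mice (0.0624% of 16029). Unadjusted p-values under 0.05 were found for 4, 1, 4 and 1 members in these comparisons, against 8.94%, 7.73%, 14.2% and 8.77% of all genes. Averaged over both injections, 0 of 10 were called in the nucleus accumbens (0.354% of 15802 genes) and 0 in the VTA (0.787% of 16256), with 3 and 1 members at an unadjusted p under 0.05, against 11.1% and 13.2% of all genes. DESeq2 on the recovered reads called 1 member in the nucleus accumbens of PBS mice, against 0.239% of 26380 genes. It called 4 in the VTA of PBS mice, against 1.08% of 26941, and 0 in morphine mice of both regions. The DESeq2 shares include low genes that the main test left out, so they are not comparable with the shares above. The quasi-likelihood test of edgeR called 0 in all 4.

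*Abcb1a* did not differ detectably between the genotypes. In the nucleus accumbens it was at 29.9, 26.5 and 29.6 CPM in the 3 wild-type PBS mice and at 26.7, 28.4 and 29.1 CPM in the 3 *Vdr*-/- PBS mice. In the VTA the values were 48.8, 47.5 and 51.2 CPM in wild-type and 47.2, 48.5 and 50.9 CPM in *Vdr*-/- PBS mice. The groups overlapped in both regions. The log2 fold changes were -0.0079 (95% confidence interval -0.23 to 0.21, adjusted p = 0.982) in the nucleus accumbens and -0.03 (-0.15 to 0.09, adjusted p = 0.834) in the VTA. With morphine they were -0.11 (-0.31 to 0.08) and 0.08 (-0.23 to 0.38). Averaged over the injections, *Abcb1a* differed by -0.06 (-0.21 to 0.09) in the nucleus accumbens and by 0.02 (-0.14 to 0.19) in the VTA. *Abcg2* had intervals that included 0 in each comparison and averages of -0.04 (-0.26 to 0.17) and 0.03 (-0.12 to 0.18).

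The other members with unadjusted p-values under 0.05 were mostly lower in *Vdr*-/- PBS mice. *Slco1c1* had 44.3, 46.4 and 43.6 CPM in the nucleus accumbens of wild-type PBS mice and 32.5, 30.9 and 35.1 CPM in *Vdr*-/- PBS mice. The groups did not overlap, and the log2 fold change was -0.43 (-0.60 to -0.25, adjusted p = 0.295). In the VTA, its values of 37.5, 37.1 and 39.5 CPM in wild-type and 33.3, 25.4 and 30.4 CPM in *Vdr*-/- PBS mice also did not overlap (-0.38, adjusted p = 0.173).

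*Cldn5*, the gene of the main claudin of the barrier, had 10.6, 10.5 and 12.04 CPM in the nucleus accumbens of wild-type PBS mice and 7.52, 7.04 and 5.34 CPM in *Vdr*-/- PBS mice. Its log2 fold change was -0.72 (-1.09 to -0.35, adjusted p = 0.376). In the VTA it had 15.02, 12.9 and 16.2 CPM against 10.6, 10.9 and 9.14 CPM (-0.54, adjusted p = 0.129). *Flt1* had a log2 fold change of -0.43 (adjusted p = 0.376) in the nucleus accumbens and -0.31 (adjusted p = 0.0941) in the VTA, and *Pecam1* -0.30 (adjusted p = 0.488) and -0.01. *Ly6c1*, the remaining endothelial member, was not lower and was not called. In the VTA it had 26.99, 23.2 and 25.2 CPM in wild-type and 28.3, 27.6 and 29.8 CPM in *Vdr*-/- PBS mice, with no overlap. Its log2 fold change with each library left out ran from 0.115 to 0.225 in the VTA and from 0.038 to 0.138 in the nucleus accumbens. Without wild-type PBS mouse 2, the library that stood apart, *Flt1* was called in the nucleus accumbens at -0.54 (adjusted p = 0.0234). Without *Vdr*-/- PBS mouse 8 it was called in the VTA at -0.34 (adjusted p = 0.0338). In the averages over injections, leaving out wild-type PBS mouse 2 called *Flt1* (-0.33) and *Slco1c1* (-0.35) in the nucleus accumbens, leaving out *Vdr*-/- morphine mouse 2.0 called *Slco1c1* (-0.42), and leaving out wild-type morphine mouse 1.1 called *Slc2a1* in the VTA (0.22).

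*Slc2a1* was also higher in *Vdr*-/- mice in the VTA of PBS mice. It had 149, 137 and 141 CPM in wild-type and 167, 175 and 178 CPM in *Vdr*-/- mice, with no overlap and a log2 fold change of 0.26 (0.15 to 0.37, adjusted p = 0.0911). DESeq2 called it there (adjusted p = 0.00688), together with *Flt1* (0.00404), *Cldn5* (0.0226) and *Slco1c1* (0.0458), and it called *Slco1c1* in the nucleus accumbens (0.0366). These members are thus called or not depending on the method. In morphine mice the changes of *Cldn5* were 0.03 in the nucleus accumbens and 0.08 for the VTA, those of *Flt1* -0.12 and -0.0033, and those of *Slco1c1* -0.28 and 0.02.

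**Figure D3:**
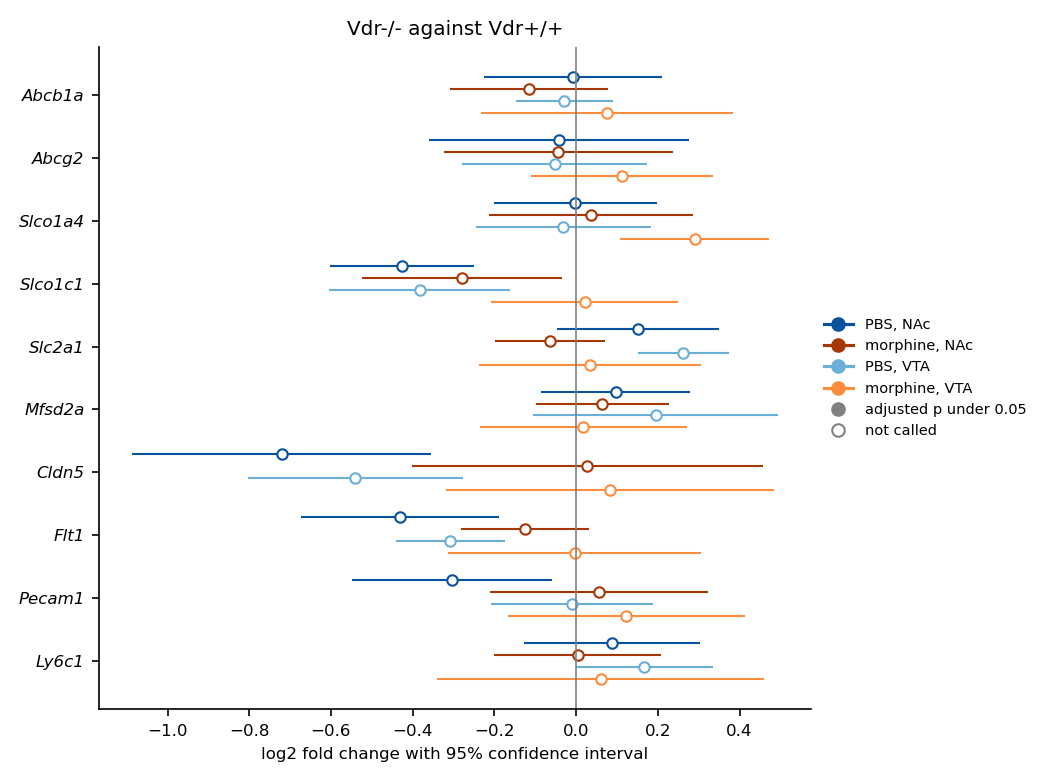
Log2 fold change of *Vdr*-/- against *Vdr*+/+ mice for each member, with 95% confidence intervals, by injection and region. None is called (open circles). *Cldn5*, *Flt1* and *Slco1c1* lie below 0 in PBS mice of both regions.

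None of the 15 endothelial genes outside the members was called between the genotypes either. In PBS mice their median was -0.37 in the nucleus accumbens with 2 of 15 higher in *Vdr*-/- mice, and -0.31 in the VTA with 1 of 15 higher. The medians of all genes tested were 0.01 and -0.0017. In morphine mice the endothelial medians were -0.07 and 0.12. None of the 6 other efflux pumps, 14 carriers, the junction genes or the 11 pericyte and smooth muscle genes was called. The pericyte and smooth muscle genes had medians of -0.30 and -0.16 in PBS mice, and in the VTA of PBS mice the dopamine neuron genes had a median of -1.27. The part of these lists in the members' values was not tested.

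*Abcb1a* was then set against the endothelial genes of the same library, as its log2 value minus the mean log2 value of the 15 genes. In the nucleus accumbens this was 1.44, 1.18 and 1.26 in wild-type PBS mice and 1.54, 1.70 and 1.70 in *Vdr*-/- PBS mice, so that every *Vdr*-/- library lay above every wild-type library. The difference was 0.35 (exact permutation test, two-sided, p = 0.1, the smallest that 3 mice against 3 can give) and stayed between 0.30 and 0.43 with each library left out. In the VTA it was 1.67, 1.66 and 1.53 in wild-type and 1.76, 1.86 and 1.93 in *Vdr*-/- PBS mice, again with no overlap. That difference was 0.23 (exact permutation test, p = 0.1) and 0.14 when *Cldn5*, *Flt1*, *Pecam1* and *Ly6c1* took the place of the 15 genes. *Abcb1a* itself changed by -0.0079 and -0.03 in these comparisons, and the median of the endothelial genes by -0.37 and -0.31.

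In morphine mice, which are other animals, the genotypes overlapped on this measure in both regions. The differences were -0.09 in the nucleus accumbens (exact permutation test, p = 0.4) and -0.04 in the VTA (p = 0.5, exact). Whether the genotype difference on this measure depended on the injection was not tested. In the nucleus accumbens of wild-type mice it was 1.53, 1.56 and 1.76 with morphine, all above the PBS mice, with a difference of 0.32 (exact permutation test, p = 0.1). These PBS mice are the same as in the comparison of genotypes. In the VTA of wild-type mice the difference from PBS was 0.12 (exact permutation test, p = 0.2, 3 mice against 2, where 0.1 is the smallest possible). In *Vdr*-/- mice it was -0.12 (exact, p = 0.2) and -0.11 (exact, p = 0.4).

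**Figure D4:**
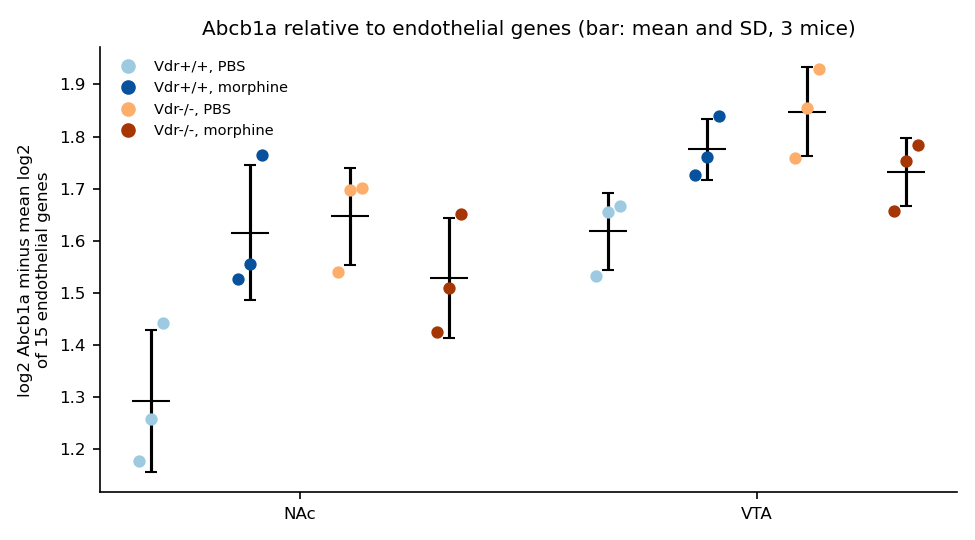
*Abcb1a* relative to 15 endothelial genes in each of 24 libraries, on a log2 scale. Points are mice, and bars are means and SDs of 3. *Vdr*-/- PBS mice lie above wild-type PBS mice in both regions, from 1.54 to 1.70 against 1.18 to 1.44 in the nucleus accumbens (NAc).

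From the deposited values, *Mfsd2a* was called higher with morphine in both regions of *Vdr*-/- mice. Its values in wild-type mice were as large but missed the threshold. *Abcb1a* was not called in these comparisons. In the nucleus accumbens 0 of 10 members were called in wild-type mice (background 0.813% of 15749 genes), with 2 members at an unadjusted p under 0.05 against 16.6% of all genes, and 1 in *Vdr*-/- mice (19.1% of 15820). In the VTA 0 were called in wild-type mice (3.65% of 16187), with 5 members at an unadjusted p under 0.05 against 24.2% of all genes, and 2 in *Vdr*-/- mice (10% of 16364), *Mfsd2a* and *Ly6c1*. These VTA tables do not hold wild-type PBS mouse 3 and *Vdr*-/- PBS mouse 8, so 3 morphine mice were compared with 2. With all mice in the VTA, *Mfsd2a* was called in wild-type mice and not in *Vdr*-/- mice, as given below.

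*Mfsd2a* stood at 20.5, 20.1 and 19.01 CPM in the nucleus accumbens of wild-type PBS mice and at 26.6, 29.0 and 27.9 CPM in wild-type morphine mice. In *Vdr*-/- mice the values were 20.4, 21.9 and 20.4 CPM with PBS and 27.4, 28.7 and 31.0 CPM with morphine. Each of the 6 morphine libraries was above each of the 6 PBS libraries. The log2 fold change was 0.43 in *Vdr*-/- mice (95% confidence interval 0.27 to 0.59, adjusted p = 0.00233) and 0.46 in wild-type mice (0.27 to 0.65, adjusted p = 0.0599). The second misses the threshold by a small margin, and DESeq2 called it (adjusted p = 0.0222). It was the 1 member called, against 1.87% of 26303 genes, low genes included. Without wild-type PBS mouse 2 it was called as well, at 0.45 (adjusted p = 0.0295), as was *Slc2a1* at 0.36 (adjusted p = 0.0376). In *Vdr*-/- mice, leaving out morphine mouse 2.1 also called *Slco1c1*, at 0.38 (adjusted p = 0.0472).

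In the VTA *Mfsd2a* had 27.2, 25.5 and 26.1 CPM in wild-type PBS mice and 34.1, 38.2 and 42.8 CPM in wild-type morphine mice. *Vdr*-/- mice had 24.97, 37.0 and 30.6 CPM with PBS and 40.1, 35.6 and 40.9 CPM with morphine. The groups did not overlap in wild-type mice, and in *Vdr*-/- mice PBS mouse 8, at 37.0 CPM, reached into the morphine group. The deposited table leaves that mouse out, and from it the log2 fold change was 0.48 (0.24 to 0.73, adjusted p = 0.0326). With all mice it was 0.34 and not called (adjusted p = 0.144, with 1 member called, *Ly6c1*, against 7.99% of genes). The call was also lost without morphine mouse 2.2 and without PBS mouse 7. In wild-type mice the change was 0.50 (0.22 to 0.79, adjusted p = 0.0727), and with all mice 0.52 (adjusted p = 0.0205).

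The morphine response of *Mfsd2a* did not differ detectably between the genotypes, with an interaction of -0.03 (-0.25 to 0.19) in the nucleus accumbens and -0.02 (-0.40 to 0.37) in the VTA. No member passed the interaction test in the nucleus accumbens (0% of 15788 genes) or in the VTA (0.0553% of 16288). In each region 2 members had an unadjusted p under 0.05, against 5.8% of all genes for the nucleus accumbens and 12.2% for the VTA. These were *Cldn5* in both, *Flt1* in the nucleus accumbens and *Slco1a4* in the VTA. *Cldn5* had an interaction of 0.75 (0.12 to 1.38, adjusted p = 0.832) in the nucleus accumbens and 0.61 (0.04 to 1.18, adjusted p = 0.379) in the VTA. Averaged over the genotypes, in a fit chosen after the values had been seen, *Mfsd2a* rose by 0.44 (0.34 to 0.55, adjusted p = 2.22e-04) in the nucleus accumbens and by 0.49 (0.30 to 0.69, adjusted p = 0.00572) in the VTA.

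That averaged fit called 2 members in the nucleus accumbens, against 19.8% of genes, the second being *Slc2a1*. The glucose carrier had 99.5, 104 and 87.8 CPM in wild-type PBS mice and 120, 133 and 120 CPM in wild-type morphine mice, with no overlap. In *Vdr*-/- mice it had 97.4, 107 and 114 CPM with PBS and 111, 120 and 125 CPM with morphine, where the groups overlapped. The averaged log2 fold change was 0.23 (0.11 to 0.35, adjusted p = 0.0125). In the VTA it was -0.02 (-0.21 to 0.16), and the difference between the regions is tested below.

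*Abcb1a* had 36.3, 29.8 and 30.0 CPM in the nucleus accumbens of wild-type morphine mice and 28.6, 31.98 and 27.8 CPM in that of *Vdr*-/- morphine mice, overlapping the PBS values given above. Its log2 fold changes with morphine were 0.13 (-0.13 to 0.39, adjusted p = 0.563) in wild-type and 0.03 (-0.13 to 0.19, adjusted p = 0.825) in *Vdr*-/- mice. In the VTA it had 41.9, 49.0 and 32.6 CPM in wild-type morphine mice and 42.8, 43.9 and 42.1 CPM in *Vdr*-/- morphine mice. The 3 *Vdr*-/- morphine mice were below the 3 *Vdr*-/- PBS mice, with a log2 fold change of -0.19 (-0.33 to -0.06, adjusted p = 0.073). In wild-type mice it was -0.28 (-0.66 to 0.10, adjusted p = 0.331), and morphine mouse 1.1, at 49.0 CPM, lay among the PBS mice. The average over genotypes was -0.24 (-0.45 to -0.03, adjusted p = 0.0914), which with all mice was also -0.24 but called (adjusted p = 0.0353).

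Other members had mostly negative values in the VTA with morphine. In the wild-type mice 8 of 10 members were below PBS, *Cldn5* by -0.60 (adjusted p = 0.115), *Slco1c1* by -0.39 (adjusted p = 0.109) and *Slco1a4* by -0.38 (adjusted p = 0.0824). Their count of calls hung on single libraries. Without morphine mouse 1.1, 7 members were called, against 17.4% of genes, with *Abcb1a* at -0.43 (adjusted p = 0.0369). With all mice, 4 were called, against 12.2%. DESeq2 called 2, *Mfsd2a* and *Slco1a4*, against 5.19% of 26162 genes, low genes included. In *Vdr*-/- mice *Ly6c1* fell, from 28.3, 27.6 and 29.8 CPM to 23.1, 21.8 and 22.5 CPM, with a log2 fold change of -0.37 (-0.54 to -0.21, adjusted p = 0.0229). The groups did not overlap, but only 1 of 5 fits with a library left out called it, the one without morphine mouse 2.0. Averaged over the genotypes 2 members were called, against 24.1% of genes, *Mfsd2a* and *Slco1c1*, the latter at -0.24 (-0.40 to -0.08, adjusted p = 0.0335) and in 5 of 10 fits with a library left out. With all mice 7 were called, against 31.1%.

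**Figure D5:**
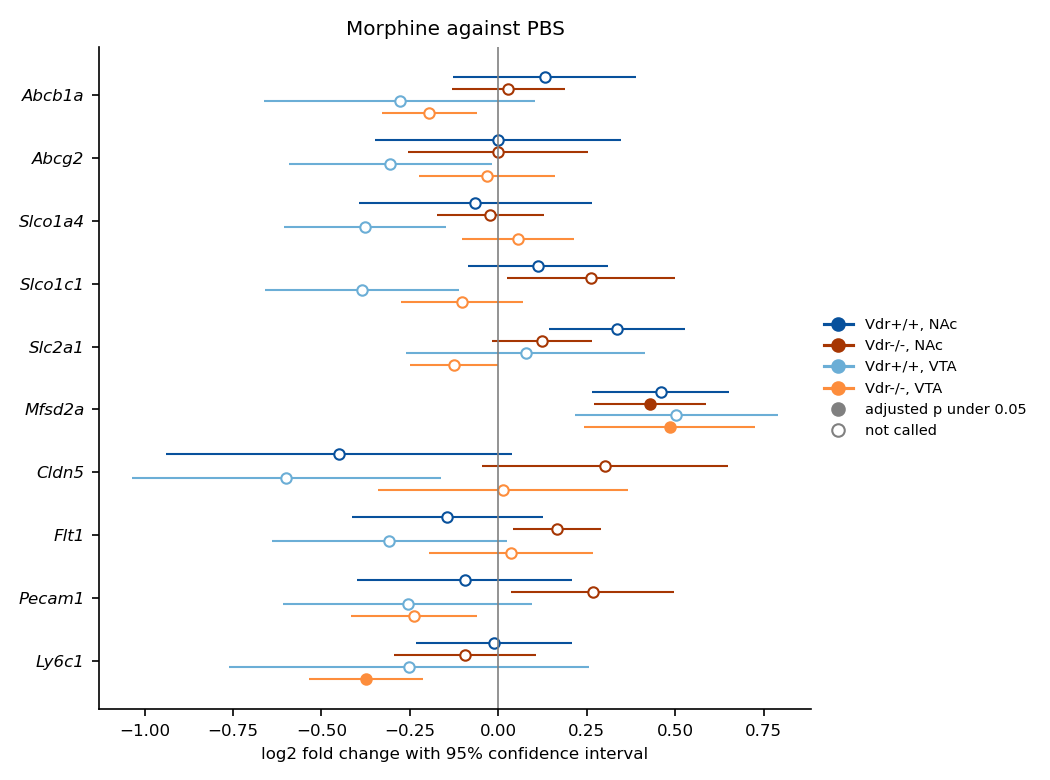
Log2 fold change of morphine against PBS for each member, with 95% confidence intervals, by genotype and region. Filled circles are called. *Mfsd2a* is at 0.43 to 0.50 in all 4 comparisons, and *Abcb1a* is called in none.

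Marker genes of other cell types moved with morphine too. In the VTA of wild-type mice the 15 endothelial genes had a median of -0.45 with 0 of 15 higher, the 11 pericyte and smooth muscle genes -0.43, the 8 microglia genes -0.73 with 6 called lower, and the 6 dopamine neuron genes -3.62 with 5 called lower, where 3.65% of all genes were called. The median of all genes was -0.01. In the VTA of *Vdr*-/- mice 10% of all genes were called. There the endothelial median was -0.05, with 1 of 15 called lower, *Podxl* (-0.54), and the dopamine neuron median was -0.03. In the nucleus accumbens of *Vdr*-/- mice 3 endothelial genes rose, *Egfl7* (0.38), *Eng* (0.38) and *Cdh5* (0.36), as did 4 of 11 pericyte and smooth muscle genes, led by *Acta2* (1.38), and 7 of 8 fibroblast genes, where 19.1% of all genes were called. In the same comparison 5 of 8 astrocyte genes rose, led by *Gfap* (1.28) and *Gjb6* (0.96), 4 of 8 microglia genes fell, and 6 of 6 genes of accumbens neurons fell, with a median of -0.56. Wild-type mice had 2 astrocyte genes called higher there, *Gjb6* (1.13) and *Gfap* (0.78), 1 microglia gene called lower, and 3 of 6 accumbens neuron genes called lower, with a median of -0.74, where 0.813% of all genes were called. These neuron genes summed to 1255 to 1769 CPM in the 6 morphine libraries of the nucleus accumbens and to 1947 to 2543 CPM in the 6 PBS libraries, the same libraries that *Mfsd2a* separated. Of the 15 endothelial genes 0 were called in the nucleus accumbens of wild-type mice. Among genes of leaky or activated endothelium, *Vcam1* was called higher in the nucleus accumbens of *Vdr*-/- mice (0.50). Choroid plexus genes called higher were *Otx2* in the nucleus accumbens (1.90) and *Clic6* in the VTA (1.12), both in *Vdr*-/- mice. The 3 measured red blood cell genes had medians from -1.06 to -0.55 in the 4 comparisons. The part of these markers in the values of the members, *Mfsd2a* and *Slc2a1* included, was not tested.

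Among carriers and junction genes outside the members, calls with morphine went in both directions, in comparisons where 19.1% of all genes (nucleus accumbens, *Vdr*-/-), 3.65% (VTA, wild-type) and 10% (VTA, *Vdr*-/-) were called. Of 14 carriers, 2 rose and 2 fell in the nucleus accumbens of *Vdr*-/- mice, led by the reelin receptor *Lrp8* (0.34). In the VTA 2 fell in wild-type mice, *Slc16a1* (-0.80) and the transferrin receptor *Tfrc* (-0.33). In the VTA of *Vdr*-/- mice 4 fell and 1 rose, with the largest falls in the glutamine carrier *Slc38a3* (-0.85) and *Tfrc* (-0.55). Of the 6 other efflux genes 2 fell in the nucleus accumbens of *Vdr*-/- mice, *Abcb1b* (-0.61) and *Abcc1* (-0.25), and none was called in the other 3 comparisons. *Cgn* rose in the nucleus accumbens of *Vdr*-/- mice (0.59), *F11r* fell in the VTA of wild-type mice (-0.70), and *Jam2* fell in that of *Vdr*-/- mice (-0.45). Of the 14 genes of Wnt signaling and barrier transcription factors, *Axin2*, a Wnt target, rose in the nucleus accumbens of *Vdr*-/- mice (0.38) and in the VTA of wild-type mice (0.62).

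Whether a member's region difference changed with the injection or the genotype was tested on the difference between the regions of each mouse, in a fit also chosen after the values had been seen. With genotype 0 of 10 members were called (0% of 16561 genes), and 0 had an unadjusted p under 0.05, against 5.42% of all genes. With injection 2 were called, against 9.02% of genes, *Slco1c1* at 0.38 (0.16 to 0.60, adjusted p = 0.0388) and *Cldn5* at 0.27 (0.11 to 0.43, adjusted p = 0.0408). Both were higher in the nucleus accumbens relative to the VTA in morphine mice than in PBS mice. *Abcb1a* had 0.32 (0.09 to 0.55, adjusted p = 0.0827), *Pecam1* 0.32 (adjusted p = 0.09) and *Slc2a1* 0.24 (adjusted p = 0.0537). Without mouse 1.1, 6 of 10 members were called, against 8% of genes, with *Abcb1a* at 0.40 (adjusted p = 0.0278). *Mfsd2a*, which rose in both regions, had 0.01 (-0.20 to 0.22). The endothelial genes had a median of 0.25, with 3 of 15 called, and the dopamine neuron genes a median of 2.00.

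Across the 24 libraries, with each region centred on its mean, the genes most like *Abcb1a* were *Cobll1* (Pearson r = 0.84), *Prom1* (0.83), a gene without a symbol in the files, named *Gm8995* in GENCODE M21 (0.82), *Golim4* (0.82), the endothelial gene *Vwf* (0.79), *Cast* (0.77), *Phldb2* (0.77) and *Appl2* (0.76), out of 15064 genes. Among the members, *Slco1a4* (0.65), *Pecam1* (0.60) and *Abcg2* (0.60) were closest and *Mfsd2a* was opposite (-0.35). *Mfsd2a* had its highest correlation among the members with *Slc2a1* (0.50). *Cldn5* and *Flt1* (0.76) and *Slco1c1* and *Flt1* (0.77) varied together. The libraries also vary in depth and in marker genes of other cell types, so these values only describe the 24 libraries.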

How the data were processed

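Per the labels and the study's methods, the authors checked reads (FastQC), trimmed them (Trimmomatic 0.36), mapped them with STAR 2.4.2a to GRCm38 and counted them per GENCODE gene, with CASAVA 1.8 also named in the submitters' processing notes. Libraries came from a directional kit, and the strand counted is not given in the sources used here. The deposited values are normalized counts, treated here as a signal. In each of 8 tables they are taken to be reads divided by a factor of the library. That this is the size factor of DESeq2, the program the study names, was assumed. Of these values 100% were whole multiples of 1 read (tolerance 0.01), so reads were recovered, and CPM and RPKM were computed from them. Columns with the authors' fold changes and p-values were not used.

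The genotype and injection tests used limma 3.58.1 on log2 values with a pseudocount of 1, for genes whose mean was 10 or more (variance trend, two-sided, Benjamini-Hochberg over all genes, threshold 0.05). Fold changes on this scale understate those of low genes. Regions were compared on log2 CPM (edgeR 4.0.16 TMM factors, prior count 1, mean CPM of at least 0.5) with the mouse as a block. The labels give both regions the same number, which is taken to mean the same mouse. Deviations of the regions of a mouse correlated between -0.07 and 0.18. Wild-type and *Vdr*-/- morphine mice share last digits in their numbers, and these were not used as pairs in the main tests. Alternatives were a pseudocount of 5, no filter or a mean of 50 or more, no variance trend, TMM factors, DESeq2 1.42.0 or edgeR on the recovered reads, all mice in the VTA, and each library left out. R 4.3.3 and Python 3.11.15 were used. Interactions and averages took each genotype or injection from its own table. Nothing says that mice of a group came from separate litters, so p-values measure the spread between these mice. The limma script was tested on simulated data.

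All members, genes called in the other lists (up to 5 per list, by size) and the 8 genes most like *Abcb1a* were named by rule, from which the text gives a selection. Members and lists were chosen with earlier results of these data known. Gene lists come from general knowledge. Averages over genotypes, region fits by group and tests of region differences between groups were chosen after seeing the data. Gene positions come from GENCODE M21, which holds 30204 of 30270 identifiers.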

Additional observations from a re-analysis of the deposited data

Results flagged for a closer look

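The value in the nucleus accumbens minus that in the VTA was higher in morphine than in PBS mice by 0.38 on the log2 scale for *Slco1c1* and by 0.27 for *Cldn5*, in a test of the difference itself over 12 mice. *Slco1c1* was thus further above its VTA level with morphine, and *Cldn5* less far below its own. *Slco1c1* ran from 0.28 to 0.90 (nucleus accumbens minus VTA, log2 CPM) in the 6 morphine mice and from 0.06 to 0.38 in the 6 PBS mice. *Cldn5* ran from -0.29 to -0.02 and from -0.70 to -0.31. Both calls were lost with most mice left out: *Slco1c1* was called in 4 and *Cldn5* in 2 of 12 such fits, with values from 0.34 to 0.44 and from 0.235 to 0.30. Without mouse 1.1, 6 members were called, against 8% of all genes, *Abcb1a* at 0.40 (adjusted p = 0.0278, limma) among them. Dopamine neuron genes also differ between the injections in the VTA libraries, and their part was not tested.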

How the results depend on the processing

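Of 2480 member values under other settings, 2374 kept their call or, if uncalled, stayed uncalled within a standard error, 34 lost a call, 49 gained one and 23 moved by more than a standard error without one. No called value changed sign, and 116 uncalled values did. The number of members called moved as follows. With DESeq2 it was 1 for *Vdr*-/- against wild-type PBS mice in the nucleus accumbens, 4 in the VTA, 1 for morphine against PBS in the wild-type nucleus accumbens and 2 in the wild-type VTA. With all mice it was 4 in wild-type and 1 in *Vdr*-/- VTA with morphine, and 7 averaged over genotypes. From the deposited values without a variance trend it was 0 in the *Vdr*-/- VTA with morphine and 1 averaged over genotypes in the VTA, against 2 in each main fit. With single libraries left out, genotype counts ran from 0 to 1 in PBS mice of each region, from 0 to 2 averaged in the nucleus accumbens and from 0 to 1 averaged in the VTA. Morphine counts ran from 0 to 2 in the wild-type and from 1 to 2 in the *Vdr*-/- nucleus accumbens, from 0 to 7 in the wild-type VTA (7 without mouse 1.1), from 0 to 2 in the *Vdr*-/- VTA and from 1 to 6 averaged in the VTA. Counts for the region difference by injection ran from 0 to 6 (6 without mouse 1.1). *Abcb1a* relative to endothelial genes in the VTA of PBS mice was 0.14 with the 4 endothelial members. The cause of these shifts was not tested. Between the regions, 10 members were called under each setting. *Mfsd2a* in the nucleus accumbens of *Vdr*-/- mice was called under 13 of 13 settings, and in the VTA under 9 of 13.

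With a replicate block for the last digit of the morphine mouse numbers, 0 members were called between the genotypes in both regions, as without it. The same-digit deviations correlated between -0.28 and -0.02. With 3 mice per group this cannot show whether the digit marks pairs. Without the mouse block, 10 members were called between the regions. DESeq2 and edgeR were not run for interactions and averages. Groups of 3 mice limit what could be called, since only larger or steadier changes pass over all genes.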
